A study of Mus musculus with 12 samples.

Results

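MD(ND2bHLH), called the chimera here, and NeuroD2 carry the same basic helix-loop-helix (bHLH) domain, and their binding sites in P19 cells were compared site by site. The chimera is MyoD with its bHLH domain replaced by that of NeuroD2. P19 is a mouse embryonal carcinoma line, a stem-like tumour line that can be turned towards muscle or neurons. All sites of both deposited lists were taken, 14375 for the chimera and 31458 for NeuroD2, which is 45833 of the 120275 sites in the 5 lists of the series. The data are chromatin immunoprecipitation followed by sequencing (ChIP-seq). Cells transduced with the chimera were precipitated with MyoD antibodies 6196 and 6975, and cells transduced with NeuroD2 with NeuroD2 antibodies 1165 and 1240. In both groups infection was done with polybrene at 8 µg/ml, and after 48 h the cells went into a neuronal medium. The same MyoD antibodies were used for 3 further groups that serve as reference, P19 cells transduced with MyoD, with MD(ND2bHLH)WC and with MD(ND2bHLH)WCS. The last of these are mutants of the chimera, called WC and WCS, and no label explains these letters.

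Proteins with a bHLH domain dimerise through the helix-loop-helix, usually with an E protein, and touch DNA at E-boxes (CANNTG) through the basic region. MyoD is a master regulator of skeletal muscle, and NeuroD2 drives neuronal differentiation. Outside its bHLH, MyoD has a transactivation domain and a histidine- and cysteine-rich region known to take part in contacts with Pbx and Meis homeodomain proteins. The chimera and NeuroD2 therefore share the part that reads the E-box and differ in all remaining sequence.

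Both libraries of a group, made with 1 antibody each, lead to a single list. There is thus no spread between replicates, and no test between groups was made. Intervals in brackets are exact Clopper-Pearson 95% intervals of a share, and they cover counting error only. Read depth is unknown, so a site missing from a list is a site not called there. Levels of the transduced proteins were not analysed here. The antibody cannot be told apart from the protein in the direct comparison. The chimera and MyoD lists hold 0 sites on chromosome X, whereas the NeuroD2 list has 570. The chimera list has no site narrower than 200 bp, against 104 in the MyoD list and 596 in the NeuroD2 list. The list of WC has 403 sites on X and that of WCS 362, so the lists of NeuroD2, WC and WCS are alike in holding that chromosome, and whether filters or batches also differed cannot be told apart from the protein. Each deposited list gives 1 value per site, taken to be a −log10 p-value because of its range, and it serves to rank sites within a list.

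Most of the NeuroD2 list had no counterpart in the chimera list, and about as many chimera sites lacked a NeuroD2 counterpart as had one, although both proteins carry the NeuroD2 bHLH. Of the 14375 chimera sites, 7332 overlapped a NeuroD2 site by at least 1 base, or 51.0% (50.2 to 51.8%). Of the 31458 NeuroD2 sites, 7448 overlapped a chimera site, or 23.7% (23.2 to 24.1%). This left 7043 chimera-only sites and 24010 NeuroD2-only sites, and the overlapping sites are called common. The chimera list covered 7.36 Mb and the NeuroD2 list 12.1 Mb, and the bases in both came to 2.85 Mb. With all lists shortened by value to the 14375 sites of the chimera list, 34.0% of either list overlapped the other.

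Where the lists met, the centres of overlapping sites lay within 100 bases of each other in 75.2% of pairs. The 7332 chimera sites and 7448 NeuroD2 sites formed 7494 overlapping pairs. Only 156 chimera sites touched more than 1 NeuroD2 site, with 4 at most, and 44 NeuroD2 sites touched more than 1 chimera site. The median distance between the centres of a pair was 44.0 bases (quartiles 18.5 and 99.5), and the 90th percentile was 201 bases. In 65.5% of pairs the narrower site lay wholly inside the wider one, and in 64.8% the chimera site was the wider. Near misses around the 1-base rule were few: 25 pairs shared under 50 bases, and 56 chimera-only sites lay within 100 bases of a NeuroD2 site.

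Common sites had the higher values in both lists. The median value in the NeuroD2 list was 17.5 for common sites (quartiles 9.18 and 36.9) and 9.31 for NeuroD2-only sites (6.55 and 16.7). In the chimera list it was 11.2 for common sites (7.41 and 20.1) and 8.30 for chimera-only sites (6.44 and 12.7). The quartile ranges of the classes overlapped in both lists. Common sites were also wider, at a median of 463 bp against 401 bp in the chimera list and 399 bp against 326 bp in the NeuroD2 list. A wider site can meet another more easily, and the part of width was not tested beyond the rule on centres given in the closing section.

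The sites that both proteins held and those that only 1 held differed in their presence in the MyoD list, and the difference was one-sided. Of all chimera sites 57.3% were in the MyoD list. Chimera-only sites stood at 57.4% (56.3 to 58.6%), or 4045 of 7043, and common chimera sites at 57.1% (56.0 to 58.3%), or 4189 of 7332. The intervals of both chimera classes overlapped. Of all NeuroD2 sites 20.4% were in the MyoD list. NeuroD2-only sites stood at 9.20% (8.84 to 9.58%), or 2210 of 24010, and common NeuroD2 sites at 56.6% (55.4 to 57.7%), or 4214 of 7448. With lists of equal length the NeuroD2-only share was 5.46%.

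Read from the other side, a NeuroD2 site that MyoD also bound was far more often in the chimera list. Among the 6424 NeuroD2 sites of the MyoD list, 65.6% were chimera sites (64.4 to 66.8%). Among the 25034 NeuroD2 sites outside it, 12.9% were (12.5 to 13.3%), a ratio of 5.08 and an odds ratio of 12.9. For chimera sites the corresponding shares in the NeuroD2 list were 50.9% of the 8234 sites in the MyoD list (49.8 to 52.0%) and 51.2% of the 6141 sites outside it (49.9 to 52.4%), an odds ratio of 0.988. MyoD and the chimera share their antibodies and the sequence outside the bHLH, and both of their lists lack chromosome X. The parts of antibody, sequence and any shared filter or batch in this excess cannot be told apart. On autosomes and with the width of the narrowest chimera site as the floor for every list, the shares of NeuroD2 sites were 65.8% and 13.4%. With lists of equal length they were 80.9% and 23.1%.

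**Figure D1:**
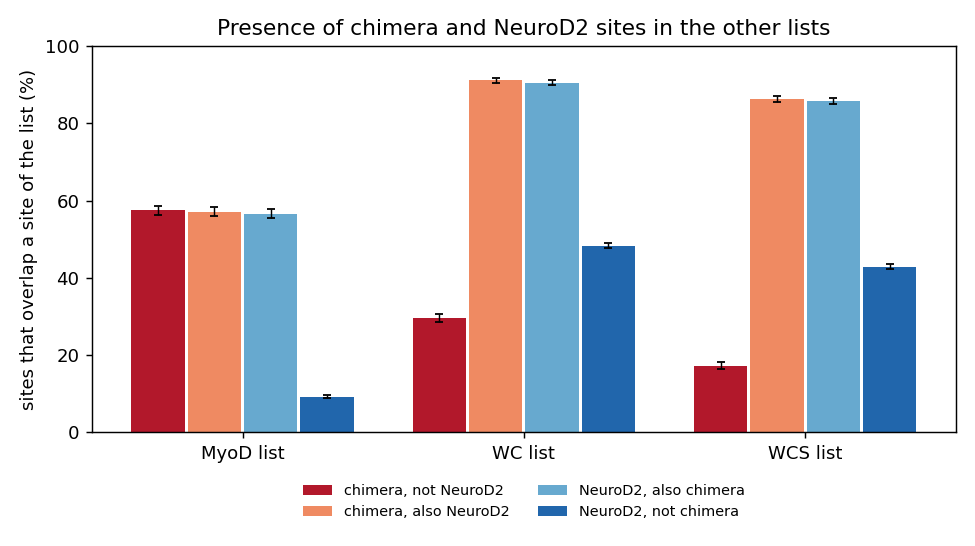
Share of sites (%) that overlap a site of the MyoD, WC or WCS list, for chimera sites without and with a NeuroD2 overlap and NeuroD2 sites with and without a chimera overlap; bars give the share and whiskers the exact 95% interval, which covers counting error only. In the MyoD list 3 classes stand between 56.6% and 57.4% and NeuroD2-only sites at 9.20%, while in both mutant lists the common classes stand highest and chimera-only sites lowest.

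The association of the MyoD list with chimera binding was present at every level of NeuroD2 value. The NeuroD2 list was divided into 10 bins of equal size by value, bin 1 holding the lowest. Among NeuroD2 sites of the MyoD list, the share in the chimera list was 46.6% in bin 1 (41.8 to 51.4%) and 85.7% in bin 10 (83.5 to 87.8%). Among those outside the MyoD list it was 5.36% in bin 1 (4.54 to 6.27%) and 36.7% in bin 10 (34.6 to 38.8%). NeuroD2 sites of bin 1 with MyoD were thus in the chimera list more often than those of bin 10 without MyoD. The gap was between 41.2 and 54.5 percentage points in all 10 bins, and the odds ratio between 10.4 and 15.4. Over all sites of a bin, the share in the chimera list was 11.1% in bin 1 (10.0 to 12.2%) and 53.3% in bin 10 (51.5 to 55.1%).

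The chimera list behaved otherwise. In bin 1 of chimera value 36.6% of sites were in the NeuroD2 list (34.1 to 39.2%), and in bin 10 71.8% were (69.4 to 74.1%). Within bins the sites outside the MyoD list had the higher share in 9 of 10 bins. The gap, sites with MyoD minus sites without, was largest in bin 5, where 41.8% of sites with MyoD (38.3 to 45.5%) and 51.0% of sites without (47.2 to 54.8%) were NeuroD2 sites. In bin 10 the shares were 72.1% with MyoD (69.5 to 74.5%) and 69.7% without (62.3 to 76.3%), and their intervals overlapped. The sites of the MyoD list had the higher chimera values, with a median of 11.3 against 8.04, and over all bins the shares nearly met. Where centres had to lie within 100 bases, the order over all bins was turned, with 41.2% of sites with MyoD and 37.5% of sites without.

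**Figure D2:**
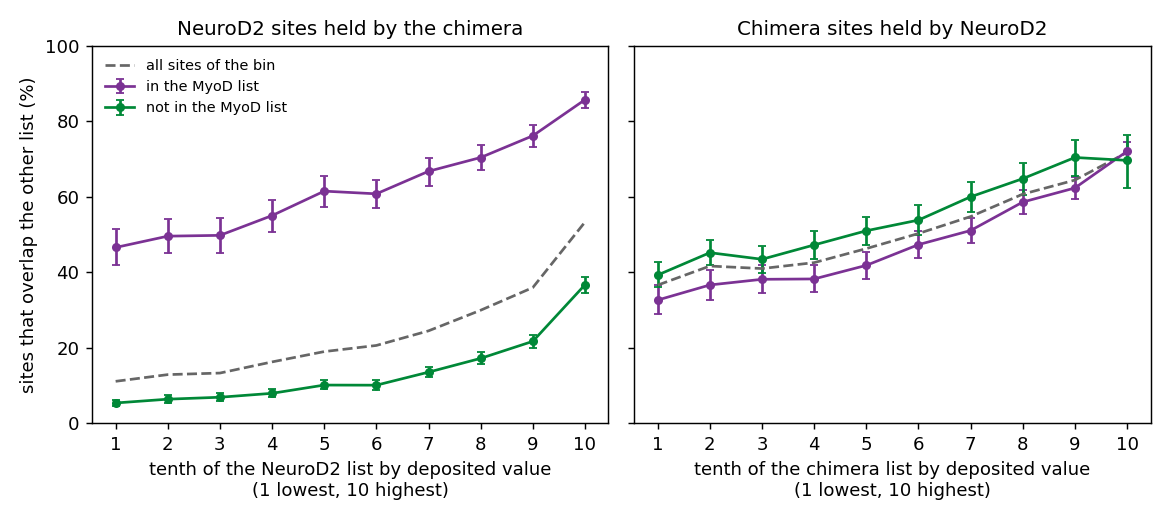
Left, share of NeuroD2 sites (%) that overlap a chimera site; right, share of chimera sites (%) that overlap a NeuroD2 site, each by bin of the deposited value in its own list, for sites in the MyoD list, sites outside it and all sites; whiskers are exact 95% intervals for counting error. On the left the sites of the MyoD list lie 41.2 to 54.5 points above the others in all 10 bins, and on the right they lie below them in 9 of 10.

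The value of the MyoD site made a further difference for NeuroD2 sites. The 6424 NeuroD2 sites of the MyoD list were divided into 5 equal groups by the highest MyoD value that they overlap. The share in the chimera list was 44.5% in the lowest group (41.7 to 47.2%), 65.3% in the middle one (62.6 to 67.9%) and 91.0% in the highest (89.3 to 92.5%). The median NeuroD2 value in these groups was 11.7, 13.3 and 18.2. Chimera sites of the MyoD list, divided in the same way, had shares in the NeuroD2 list of 47.8% in the lowest group (45.4 to 50.3%) and 58.3% in the highest (55.9 to 60.7%).

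The strength of chimera sites followed MyoD more closely than NeuroD2. At 3950 chimera sites with exactly 1 partner in the NeuroD2 list and 1 in the MyoD list, Spearman's rho across sites was 0.41 between chimera and MyoD values and 0.30 between chimera and NeuroD2 values. Between MyoD and NeuroD2 values it was 0.083. These are descriptions across sites that share libraries, and sites are not independent replicates. At the 3559 of these sites with 1 WC partner, rho was 0.66 between WC and NeuroD2 and 0.12 between WC and MyoD. At the same 3559 sites it was 0.28 between the chimera and NeuroD2, 0.41 between the chimera and MyoD, and 0.49 between the chimera and WC. WC was precipitated with the same antibodies as the chimera and MyoD. The WC and NeuroD2 lists both hold sites on chromosome X, and the chimera and MyoD lists do not. Filters or batch and the protein thus cannot be told apart in these values of rho. Nor can the antibody where the chimera is set against MyoD and NeuroD2, since NeuroD2 was precipitated with other antibodies. At 3055 pairs outside the MyoD list, rho between chimera and NeuroD2 values was 0.21.

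The position of chimera sites was also nearer to that of MyoD sites. At the same 3950 sites, the chimera centre lay at a median of 31.0 bases from the MyoD centre and 43.5 bases from the NeuroD2 centre. The MyoD centre was the nearer one at 59.2% of sites and the NeuroD2 centre at 40.1%, and 0.684% were equal. Within 20 bases lay 37.6% of MyoD centres and 26.5% of NeuroD2 centres. Median site width there was 409 bp for MyoD, 393.5 bp for NeuroD2 and 488.5 bp for the chimera, so a site's centre is only a rough mark of the bound base. The summits of the sites were not analysed here. MyoD and the chimera also share antibodies and the lack of chromosome X in their lists, and NeuroD2 differs in both. Protein, antibody and any filter or batch cannot be told apart in these distances.

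**Figure D3:**
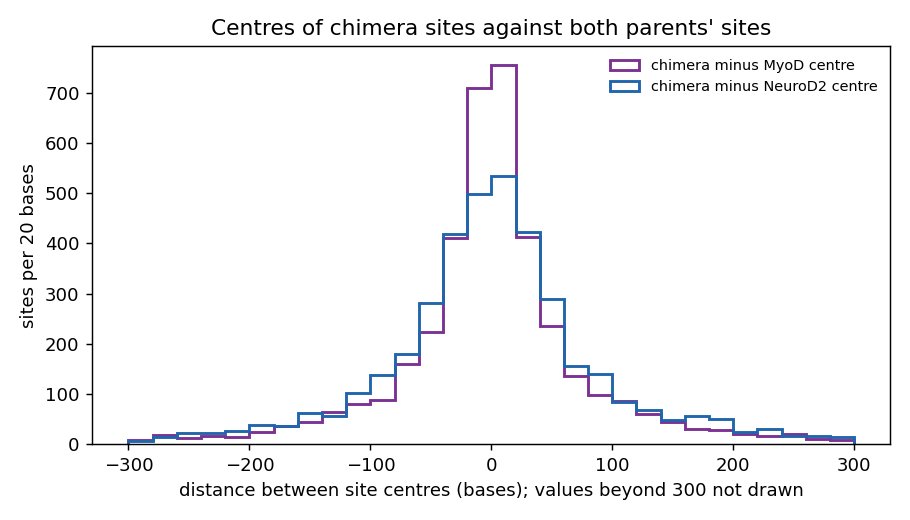
Number of sites (per 20 bases) against the distance in bases from the centre of the MyoD site or the NeuroD2 site to the centre of the chimera site, at 3950 chimera sites with 1 partner in each list; 70 MyoD and 98 NeuroD2 distances beyond 300 bases are not drawn. The MyoD curve is taller near 0, where 37.6% of sites lie within 20 bases against 26.5% for NeuroD2.

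The mutants, which like the chimera have the NeuroD2 bHLH within MyoD, were present at most common sites and at a minority of chimera-only sites. Of all chimera sites 61.0% were in the WC list and 52.5% in the WCS list. Common chimera sites stood at 91.2% for WC (90.5 to 91.8%) and 86.3% for WCS (85.5 to 87.0%). Chimera-only sites stood at 29.6% for WC (28.6 to 30.7%) and 17.3% for WCS (16.4 to 18.2%). Chimera-only sites with and without MyoD were alike in this: WC held 29.0% of those in the MyoD list (27.6 to 30.4%) and 30.5% of those outside it (28.9 to 32.2%). Common sites also had the higher chimera values, and the WC list held 43.7% of all chimera sites in bin 1 of chimera value and 87.2% in bin 10. The part of value in the contrast of common and chimera-only sites was not tested. Filters or batch and the protein cannot be told apart in it, since the NeuroD2, WC and WCS lists hold chromosome X.

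NeuroD2-only sites were reached by the mutants more often than chimera-only sites were. Of all NeuroD2 sites 58.3% were in the WC list and 53.0% in the WCS list. Of the 24010 NeuroD2-only sites WC held 48.4% (47.7 to 49.0%) and WCS 42.9% (42.3 to 43.5%), and 12984 sites or 54.1% were in at least 1 of these lists. WC and WCS were precipitated with the antibodies of the chimera, and the part of the antibody in the direct comparison was not tested. The lists of WC and WCS are longer than that of the chimera, at 27045 and 22462 sites. For WC the share of NeuroD2 sites was 81.9% with MyoD and 52.3% without, an odds ratio of 4.12, and for WCS 77.2% and 46.8%, an odds ratio of 3.84, against 12.9 for the chimera. These lists also share the chromosome X and narrowest sites of the NeuroD2 list, so filters or batch and the mutations cannot be told apart.

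By combination of lists, the largest set of chimera-only sites was in the MyoD list and in neither mutant list, with 2667 sites or 37.9%. A further 1972 chimera-only sites, or 28.0%, were in none of the 4 remaining lists, with a median value of 7.17. Common chimera sites were mostly in all lists, with 3512 sites or 47.9%, or in all lists except that of MyoD, with 2628 or 35.8%. Their median chimera values were 15.7 and 9.23. Common NeuroD2 sites in the same combinations of lists, 3520 and 2667 sites, had median NeuroD2 values of 20.2 and 22.3. The sets of the chimera and NeuroD2 lists were formed separately and not matched site by site. In these sets, sites without MyoD thus had the lower median chimera value and a median NeuroD2 value that was no lower. Of the NeuroD2-only sites 10412, or 43.4%, were in no other list, with a median value of 7.48, and 7768, or 32.4%, were in both mutant lists and not in that of MyoD, with a median of 15.6.

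The strongest sites of each list were also compared. Of the 100 chimera sites of highest value 81 were NeuroD2 sites, or 81.0% (71.9 to 88.2%), and 98 were MyoD sites. WC held 97 of the 100. All 19 that NeuroD2 lacked were in the MyoD list, and 16 of them in the WC list. Of the 1000 highest chimera sites 901 were MyoD sites. NeuroD2 lacked 272 of them, of which 241 were MyoD sites, a share close to that of the whole set. WC held 888 of the 1000 and 174 of the 272, a share below that of the whole set. Of the 1000 highest NeuroD2 sites MyoD held 399 and WC 922. The chimera lacked 338 of them, of which MyoD held 26 and WC 264, both below their shares of the whole set. Of the 100 highest NeuroD2 sites WC held 60 and MyoD 36. The chimera lacked 47 of them, of which WC held 8 and MyoD 1. These 100 include the 34 NeuroD2 sites of infinite value, of which 29 were NeuroD2-only. The mappability of reads at them was not tested.

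The 5 chimera-only sites of highest value were all MyoD sites (coordinates in mm9, counted from 1). The first, on chromosome 6 from 115073201 to 115073775, had values of 256 for the chimera, infinite for MyoD and 51.5 for WC, and the WCS list lacked it. The nearest NeuroD2 site was 0.640 kb away. The second, on chromosome 8 from 8521463 to 8522242, had 213 for the chimera, 182 for MyoD and 17.4 for WC, and its nearest NeuroD2 site was 72.3 kb away. The third, on chromosome 15 from 102999978 to 103000960, had 208 for the chimera, an infinite value for MyoD and 13.0 for WC. The fourth, on chromosome 17 from 29594635 to 29595223, had 191 for the chimera and 67.7 for MyoD. The fifth, on chromosome 7 from 19876615 to 19877022, had 175 for the chimera and 224 for MyoD, and neither mutant held it. Values of different lists are given side by side and were not compared in size, since depth is unknown.

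The common sites of highest chimera value were all MyoD sites, and their values in the NeuroD2 list ranged from 5.03 to 71.3. The first, on chromosome 8 from 125374456 to 125375092, had 311 for the chimera, an infinite value for MyoD and 16.4 for NeuroD2. The second, on chromosome 17 from 71087299 to 71088531, had 269 for the chimera and 10.7 for NeuroD2. The third, on chromosome 2 from 173875533 to 173876115, had 239 for the chimera, 71.3 for NeuroD2 and 177 for WC. The fourth, on chromosome 5 from 143736155 to 143737147, had 209 for the chimera and 24.0 for NeuroD2. The fifth, on chromosome 19 from 6445979 to 6446458, had 208 for the chimera, 262 for MyoD and 5.03 for NeuroD2, the lowest value of the NeuroD2 list.

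The common sites of highest NeuroD2 value had infinite values in that list and finite ones in the chimera list. The widest, on chromosome 6 from 116620147 to 116621790, had 118 for the chimera and 188 for MyoD, and infinite values for WC and WCS. The next, on chromosome 5 from 124656125 to 124657288, had 131 for the chimera, 61.0 for MyoD and 171 for WC. The third, on chromosome 1 from 172585425 to 172586481, had 117 for the chimera and 125 for MyoD. The fourth, on chromosome 17 from 29816965 to 29817745, had 47.7 for the chimera and 250 for WC, and MyoD did not hold it. The fifth, on chromosome 9 from 3002795 to 3003189, had 16.0 for the chimera and was in no further list.

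The leading NeuroD2-only sites were in no other list. Of the 34 NeuroD2 sites at an infinite value 29 were NeuroD2-only. Of the 5 widest, 3 lay on chromosome 9, at 3024474 to 3027974, at 3021932 to 3023919 and at 2999852 to 3001613. The other two were on chromosome 15 (74915805 to 74917630) and chromosome 18 (3005119 to 3006530). The sites on chromosomes 9 and 18 lie close to the first positions listed on those chromosomes, as does the site on chromosome 9 named just before. The mappability of reads there was not tested.

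Across windows of 1 Mb, the numbers of chimera and NeuroD2 sites rose together even where single sites differed. Of 13331 windows of 100 kb with a site of either list, 6466 held both. Over 2210 windows of 1 Mb on the autosomes that held a site of either list, the median was 4 chimera sites and 11 NeuroD2 sites per window. Spearman's rho of the site numbers across windows was 0.83 for the chimera and NeuroD2 and 0.89 for the chimera and MyoD, a description of windows that share gene density and mappability. The chimera had more sites than NeuroD2 in 133 of these windows and none in 275.

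**Figure D4:**
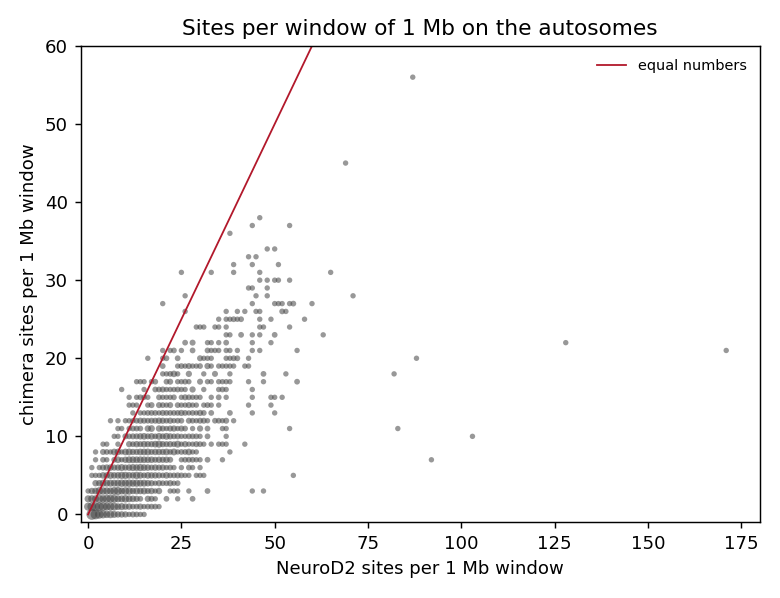
Chimera sites against NeuroD2 sites per window of 1 Mb on the 19 autosomes, 2210 windows in all, with larger points where more windows coincide; the line marks equal numbers. Most windows lie under the line, 133 lie above it, and the window with the most NeuroD2 sites, 171, holds 21 chimera sites.

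At the scale of single elements the nearest site of the other list was often several kb away. For chimera-only sites the median gap to the nearest NeuroD2 site was 16.3 kb (quartiles 5.05 and 43.3 kb), and 38.1% lay within 10 kb. For common chimera sites, measured to the nearest NeuroD2 site that they did not overlap, it was 7.93 kb (1.94 and 24.8 kb), and 55.1% lay within 10 kb. For NeuroD2-only sites the median gap to a chimera site was 33.1 kb (9.66 and 96.5 kb) over the 23440 sites off chromosome X, and for common NeuroD2 sites 16.9 kb (4.45 and 52.2 kb). Common sites thus lay in denser surroundings of the other list than sites of 1 list, in both directions, with overlapping quartile ranges.

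**Figure D5:**
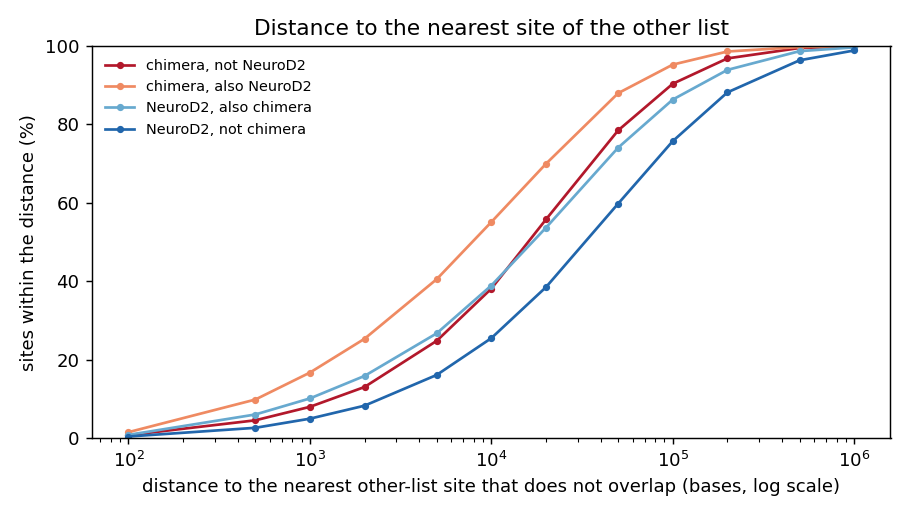
Cumulative share of sites (%) against the distance in bases (log axis) to the nearest site of the other list that does not overlap, for both classes of the chimera and of the NeuroD2 list. Common chimera sites reach 55.1% and chimera-only sites 38.1% within 10 kb, common NeuroD2 sites 38.9% and NeuroD2-only sites 25.5%.

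Windows of 100 kb were ranked by the difference in the number of sites, with no allowance for the longer NeuroD2 list, 31458 sites against 14375. The chimera had most over NeuroD2 on chromosome 10 from 77200001 to 77300000, with 15 chimera sites, 4 of them common, and 4 NeuroD2 sites. MyoD had 11 sites there, WC 17 and WCS 18. The next window, on chromosome 1 from 90900001 to 91000000, had 5 chimera, 0 NeuroD2 and 6 MyoD sites. The third, on chromosome 3 from 97800001 to 97900000, had 6, 1 and 6. These were the first by position of 5 windows tied at a difference of 5. NeuroD2 had most over the chimera on chromosome 8 from 19900001 to 20000000, with 74 NeuroD2 and 7 chimera sites, and from 19700001 to 19800000, with 69 and 9. WC had 42 and 63 sites in these. The third window, on chromosome 1 from 90100001 to 90200000, held 62 NeuroD2 sites, 5 chimera sites, 1 WC site and 0 WCS sites. The mappability of reads and the copy number in these windows were not tested. The 124 windows with over 10 NeuroD2 sites held 2171 NeuroD2 sites, of which 23.2% were in the chimera list (21.5 to 25.05%), close to the 23.7% of the whole list.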

How the data were processed

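ChIP-seq was done in 12 libraries in 6 groups, and the 2 libraries of a transduced group point to 1 list. The remaining group, untransduced cells precipitated with antibodies 1240 and 6975, has no list. The tools named in the submitters' processing notes are BWA 0.7.5 and CASAVA 1.8.2, and the build is mm9. For the peak caller, background, filters and any pooling, the method is not given in the sources used here. The values that the authors deposited were taken as −log10 p-values from their range, since no header names the unit. They were used to rank, describe and filter sites within a list. Per the labels' protocols, cells were fixed for 11 min in 1% formaldehyde and the chromatin sheared to some 150 to 600 bp.

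Sites were called shared at an overlap of 1 base or more. Shares have exact Clopper-Pearson 95% intervals. Value bins hold equal numbers of sites. Named sites are the 5 of highest value in each of 4 classes, ties ordered by width, and named windows the 3 with the largest difference in each direction. The lists, classes and rules were chosen with earlier results of these data known. No gene was placed and no site sequence read, because the gene and promoter tables used here belong to another build. On simulated lists of 44986 sites, all 7133 common sites were recovered. The scripts ran in Python 3.11.15 with matplotlib 3.10.9, scipy 1.17.1, pandas 2.3.3 and numpy 2.4.6.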

Additional observations from a re-analysis of the deposited data

How the results depend on the processing

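Each of 14 shares was recomputed under 6 alternatives, and 43 of 84 values stayed inside the interval of the reported share. In all 6 alternatives chimera-only sites were in the MyoD list more often than NeuroD2-only sites, NeuroD2-only sites were in the WC list more often than chimera-only sites, and NeuroD2 sites of the MyoD list were in the chimera list more often than those outside it. With centres at most 100 bases apart, NeuroD2 held 39.2% of chimera sites (41.2% of those with MyoD, 37.5% of those without), and the chimera held 17.9% of NeuroD2 sites (54.6% with MyoD, 10.9% without). MyoD then held 45.3% of chimera-only sites, and WC 25.03% of chimera-only and 46.1% of NeuroD2-only sites. With lists of equal length NeuroD2 held 34.0% of chimera sites (34.0% with MyoD and without), the chimera held 34.0% of NeuroD2 sites (80.9% with MyoD, 23.1% without), MyoD held 44.8% of chimera-only and 5.46% of NeuroD2-only sites, and WC 23.4% and 47.3%. With only the upper 50% of each list by value, NeuroD2 held 45.1% of chimera sites (43.5% with MyoD, 47.1% without), the chimera held 20.8% of NeuroD2 sites (11.8% without MyoD), and MyoD held 7.47% of NeuroD2-only sites. On autosomes with a common width floor the chimera held 24.4% of NeuroD2 sites (13.4% without MyoD). Without the 182 windows of 100 kb that hold over 10 sites of any list, NeuroD2 held 49.7% of chimera sites (49.6% with MyoD, 49.8% without). The order of chimera sites with and without MyoD in the NeuroD2 list thus changed with the setting, and the cause was not tested. No paired analysis was possible because each group has 1 list and no result comes from a test. For the same reason no replicate could be left out. Shares split by the MyoD list and shares of common sites were added to the planned results after seeing the data. Unknown depth limits every statement about a missing site.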

Other observations

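The agreement of both lists varied little between chromosomes. The share of chimera sites in the NeuroD2 list was highest on chromosome 6, at 54.4% (51.2 to 57.6%), and lowest on chromosome 14, at 45.3% (40.5 to 50.2%). The share of NeuroD2 sites in the chimera list was highest on chromosome 17, at 27.8% (25.4 to 30.3%), and among the autosomes lowest on chromosome 14, at 19.3% (16.9 to 21.9%). These chromosomes were picked as the extremes of 19, and the intervals cover counting error only.

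At the level of 100 kb windows, 13331 windows held a site of either list. Both lists were present in 6466 of them, NeuroD2 alone in 5576 and the chimera alone in 1289. At 3967 chimera-only sites with exactly 1 MyoD partner, Spearman's rho across sites between chimera and MyoD values was 0.36, given as a description.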
